A study of Mus musculus with 42 samples.

Results

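Excitation-contraction coupling is the process by which a skeletal muscle fiber turns an action potential into a release of calcium. The account here covers 10 of its genes, Ryr1, Cacna1s, Cacnb1, Cacng1, Stac3, Trdn, Jph1, Jph2, Casq2 and Atp2a1, which were taken by symbol from the 24466 gene symbols of the RNA-seq count tables, and each of the 10 symbols was found once. RNA-seq was deposited for iPax7 cells with Dox, for iPax7 cells without Dox and for satellite cells, and ATAC-seq and ChIP-seq regions for these and for related cultures were read at the same genes. iPax7 cells are myogenic precursors made from mouse embryonic stem cells that carry a doxycycline (Dox)-inducible Pax7 transgene. Counts per gene do not tell its reads from those of the endogenous Pax7 gene.

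The +Dox group (3 libraries) was grown in medium with FGF basic and 0.75 μg/ml Dox, and the -Dox group (2 libraries) was the same line 3 days after a change to medium without Dox. The satellite cells (3 libraries) were isolated from muscle of Pax7-ZsGreen reporter mice, so their source and their preparation cannot be told apart from the cell type in any comparison with iPax7 cells. Pax7 itself was read at 12760, 14130 and 11610 normalized counts in the +Dox libraries, at 220.6 and 269.5 in the -Dox libraries, and at 8504, 3926 and 5456 in satellite cells. A normalized count is a read count divided by the effective size of its library and brought back to the size of a typical library. The 8 libraries held between 39010958 and 54674619 reads assigned to genes, and reads that aligned to several places made up 7.11% to 7.60% of the iPax7 libraries but 23.58% to 30.68% of the satellite cell libraries. Log values over all genes correlated at 0.931 to 0.958 among +Dox libraries, at 0.944 between the -Dox libraries and at 0.868 to 0.883 among satellite cell libraries, and +Dox replicate 3 stood farther from the other +Dox libraries than they did from each other. Nothing states that the libraries of a group came from separate cultures or animals, so the p-values measure the spread between these libraries, which may be technical.

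In skeletal muscle the dihydropyridine receptor, a calcium channel in the T-tubule membrane, senses voltage and opens the ryanodine receptor of the sarcoplasmic reticulum through direct contact. Calcium held in the reticulum by calsequestrin then enters the cytosol, and SERCA pumps return it. Junctophilins hold the T-tubule and the reticulum close together, and triadin ties calsequestrin to the release channel.

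The 10 genes together took 0.00794% to 0.00899% of the reads on genes in the +Dox libraries, 0.385% to 0.396% in the -Dox libraries and 0.00919% to 0.0138% in satellite cells. In the -Dox libraries 8 of the 10 genes rose against +Dox and none fell (edgeR quasi-likelihood test, adjusted p under 0.05 and at least 2-fold), where 4.63% of the 14836 genes tested rose, 3.01% fell and 7.64% were called in either direction. Stac3 and Jph2 were not called. In satellite cells 4 of the 10 were higher than in +Dox and 2 were lower, beside 23.9% and 18.2% of all genes and 42.1% in either direction. Against -Dox, 9 of the 10 were lower in satellite cells and none was higher, beside 17.2% and 20.4% of all genes and 37.6% in either direction. The 3 comparisons share libraries and are not independent of each other. In bulk RNA, fewer cells that express a gene and less RNA per cell cannot be told apart.

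The median log2 fold change of the 10 genes was 4.27 for -Dox against +Dox, 0.81 for satellite cells against +Dox and -4.89 for satellite cells against -Dox. The median over all genes tested was -0.005, 0.174 and 0.231 in the same order. All 10 genes passed the filter on low counts, although Trdn did so through groups other than +Dox and Cacna1s through -Dox. In fits of the satellite cell and +Dox libraries alone Cacna1s was not tested. Its call between those groups thus needed the -Dox libraries in the fit. In every one of the 10 genes each -Dox library was higher than each +Dox library, a pattern that 22.7% of all genes tested had, and higher than each satellite cell library, which 30.6% of all genes had (33.7% had the opposite order). Against +Dox, each satellite cell library was higher for Trdn, Casq2 and Atp2a1 and lower for Cacng1 and Jph2, and the libraries of the other 5 overlapped, where 30.2% of all genes were higher and 26.3% lower without overlap.

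**Figure D1:**
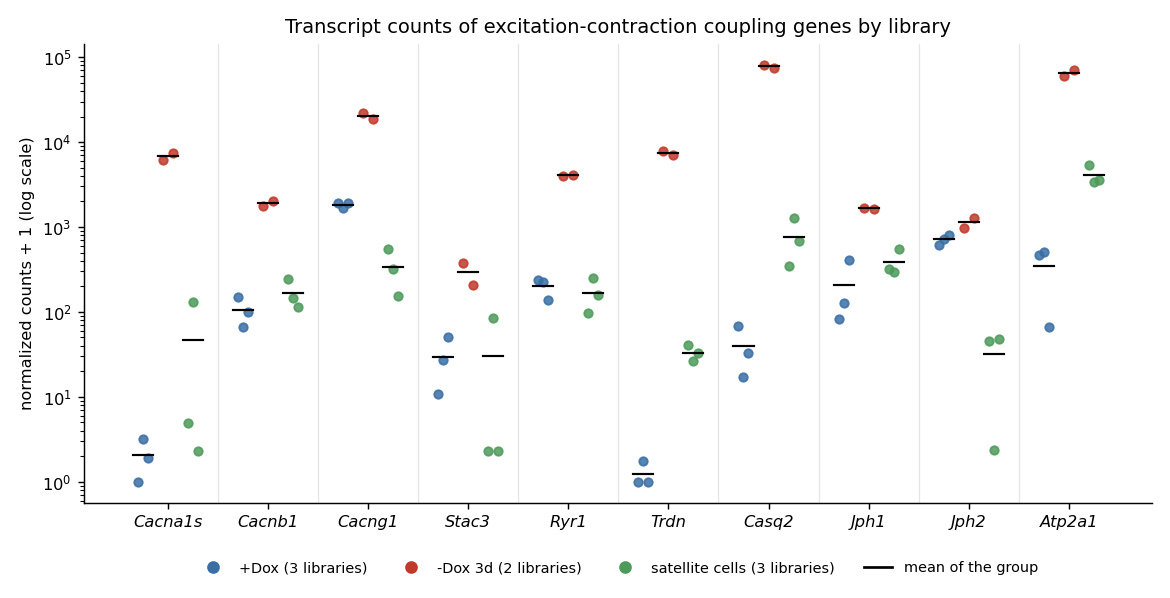
Normalized counts plus 1 on a log axis for each of the 10 genes, with 1 point per library and a bar at the mean of each group. The -Dox points lie above the +Dox points for each gene, by the least for Jph2, and Casq2 spans the range from 16.29 in a +Dox library to 81230 in a -Dox library.

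Cacna1s encodes the pore and voltage-sensing subunit of the dihydropyridine receptor, and it was nearly unread with Dox. Its normalized counts were 0, 2.22 and 0.911 in +Dox, 6211 and 7460 in -Dox, and 3.95, 131 and 1.32 in satellite cells. The +Dox and -Dox libraries did not overlap, and 1 of the 3 satellite cell libraries, replicate 2, was far above the other two. The rise after Dox removal had a log2 fold change of 12.50 ± 1.79 (SE; adjusted p = 0.00284). Because the +Dox group held only 4 reads in all against 14840 in -Dox, the ratio of the group totals is given with its counting interval, 6460 (95% interval 2520 to 23700, which covers counting error only). Satellite cells were called higher than +Dox, at 5.27 ± 1.59 on the log2 scale (adjusted p = 0.0232), but the libraries overlapped and without satellite replicate 2 the value was 1.23 (adjusted p = 0.349). The call was also lost without +Dox replicate 1 (4.67, adjusted p = 0.072) and without +Dox replicate 3 (5.20, adjusted p = 0.0744). Against -Dox, Cacna1s was lower in satellite cells by a log2 fold change of -7.23 ± 1.38 (adjusted p = 0.00306), and of -11.27 (adjusted p = 0.000114) without satellite replicate 2.

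The gene lies at chr1:137949327-138016399 on the plus strand (NCBIM37, the mm9 build, as are all gene positions here). The bases just before its start are shown because the chromatin at this start differed between conditions, as described further on. The 189 bases at chr1:137949138-137949326, from the RefSeq promoter table (GRCm38.p6) and matched once in NCBIM37, hold 2 E-boxes in capitals. An E-box is the letters CANNTG, which basic helix-loop-helix factors such as MyoD bind, and the form CAGCTG is the second of the pair shown.

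Cacna1s: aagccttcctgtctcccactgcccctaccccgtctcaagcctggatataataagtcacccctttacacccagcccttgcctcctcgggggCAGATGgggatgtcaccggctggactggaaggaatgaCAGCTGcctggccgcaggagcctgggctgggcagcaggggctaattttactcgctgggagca

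Cacnb1, the intracellular beta subunit that brings the channel to the membrane, was present in every group. It was read at 149.5, 65.17 and 98.35 normalized counts in +Dox, at 1790 and 2000 in -Dox, and at 242.2, 146.1 and 114.7 in satellite cells. The -Dox libraries stood apart and the other groups overlapped each other. It rose after Dox removal by 4.18 ± 0.54 on the log2 scale (adjusted p = 0.00178) and was lower in satellite cells than in -Dox by -3.50 ± 0.52 (adjusted p = 0.000891). Between satellite cells and +Dox the log2 difference was 0.68 ± 0.46 (adjusted p = 0.253).

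Cacng1, the gamma subunit of the muscle channel, had the highest level per exon length of the 10 genes with Dox. Its normalized counts were 1908, 1652 and 1900 in +Dox, 21920 and 18550 in -Dox, and 552, 318 and 153 in satellite cells. The 3 groups did not overlap, with satellite cells lowest. It rose by 3.47 ± 0.45 after Dox removal (log2, adjusted p = 0.00181), and in satellite cells it was lower than in +Dox by -2.42 ± 0.41 (adjusted p = 0.00148) and lower than in -Dox by -5.89 ± 0.50 (adjusted p = 6.05e-05).

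Stac3, an adaptor that the muscle channel needs for voltage-driven release, was low and variable. Normalized counts were 9.77, 25.9 and 50.1 in +Dox, at 377 and 208 in -Dox, and at 1.32, 84.5 and 1.32 in satellite cells. Both -Dox libraries were above all the others, and satellite replicate 2 was again apart from the other two. The log2 fold change after Dox removal was 3.35 ± 1.61, and it was not called (adjusted p = 0.27). Fitted on the iPax7 libraries alone, the same fold change had an adjusted p of 0.0313. The log2 difference was 0.02 ± 1.42 between satellite cells and +Dox (adjusted p = 0.993) and -3.33 ± 1.62 between satellite cells and -Dox (adjusted p = 0.127). Without satellite replicate 2 these became -4.32 (adjusted p = 0.0237) and -7.67 (adjusted p = 0.00445), so that library decided both calls.

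Ryr1 encodes the ryanodine receptor of skeletal muscle, the release channel itself. The +Dox libraries held 236.6, 222.9 and 135.7 normalized counts, the -Dox libraries 4015 and 4088, and satellite cells 96.1, 248 and 155.6. Both -Dox libraries were well above the rest, and the +Dox and satellite cell libraries overlapped. The rise after Dox removal was 4.35 ± 0.47 on the log2 scale, or 20.4-fold (adjusted p = 0.000628), and satellite cells were 24.3-fold lower than -Dox (adjusted p = 0.000146). Satellite cells and +Dox differed by -0.25 ± 0.40 (log2, adjusted p = 0.639). In the annotation 299 of its 15362 exon bases, 1.95%, also belong to Gm16799, so reads there may not be assignable to one gene.

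The genes whose centred log2 pattern over the 8 libraries was nearest to that of Ryr1, of all 14836 tested, were Arpp21, Mhrt, Tnnt1, Nexn and Gng8, at a mean absolute difference of 0.314, 0.381, 0.39, 0.392 and 0.409. Tnnt1 encodes slow skeletal troponin T, with a mean of 1321 normalized counts in +Dox, 25100 in -Dox and 1128 in satellite cells. Mhrt and Gng8 were at 0 on average in +Dox and in satellite cells and reached means of 22.57 and 27.18 in -Dox, so their likeness rests on few reads. Among the 10 genes Cacnb1 was nearest to Ryr1, at 0.571, and Trdn was farthest, at 2.97.

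Trdn encodes triadin, a junctional protein of the sarcoplasmic reticulum. It was read at 0, 0.741 and 0 normalized counts in +Dox, at 7799 and 6973 in -Dox, and at 39.5, 25.5 and 31.7 in satellite cells. The 3 groups did not overlap, and +Dox held a single read of the gene in all its libraries. The log2 fold change after Dox removal was 14.23 ± 0.63 (adjusted p = 6.41e-06), and the ratio of the group totals, 16040 reads against 1, was 27900 with a 95% counting interval from 5010 to 1100000. Satellite cells were above +Dox by 6.39 ± 0.62 (log2, adjusted p = 7.43e-05), with a ratio of totals of 122 (95% counting interval 21.2 to 4880), and below -Dox by a log2 fold change of -7.84 ± 0.46 (adjusted p = 1.05e-05). Without +Dox replicate 2, which held that read, the 2 values against +Dox were 15.84 (adjusted p = 0.00018) and 7.96 (adjusted p = 0.000458).

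Casq2, the calsequestrin of heart and slow muscle, which buffers calcium inside the reticulum, had the highest level per exon length of the 10 genes in -Dox. The +Dox libraries held 67.6, 16.3 and 31.9 normalized counts, the -Dox libraries 81230 and 74390, and satellite cells 342, 1272 and 692. The 3 groups did not overlap, and satellite cells lay between the iPax7 groups. It rose 2007-fold after Dox removal (log2 10.97 ± 0.81, adjusted p = 6.54e-05). Satellite cells were 19.8-fold above +Dox (adjusted p = 0.000536) and 101-fold below -Dox (adjusted p = 0.000135). Trdn and Casq2 were each nearest to the other among the 10 genes, at a mean absolute log2 difference of 0.993 over the 8 libraries.

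The bases before the outermost start of Casq2 are shown because this start had no called ATAC-seq region in iPax7 cells until the myotube stage. The 250 bases at chr3:101890088-101890337, plus strand, hold 2 E-boxes in capitals, and a match to the MEF2 motif begins at position -69 from the start.

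Casq2: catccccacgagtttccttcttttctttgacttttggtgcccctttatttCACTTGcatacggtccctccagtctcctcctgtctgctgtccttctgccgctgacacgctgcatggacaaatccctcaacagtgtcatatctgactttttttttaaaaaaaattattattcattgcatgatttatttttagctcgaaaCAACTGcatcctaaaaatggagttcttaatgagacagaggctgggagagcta

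Jph1 encodes a junctophilin of skeletal muscle. It was read at 81.9, 126 and 406 normalized counts in +Dox, at 1667 and 1639 in -Dox, and at 323, 296 and 549 in satellite cells. The -Dox libraries were highest, and +Dox replicate 3 lay inside the range of the satellite cells while the other +Dox libraries lay below it. Jph1 rose by 3.01 ± 0.67 on the log2 scale after Dox removal (adjusted p = 0.0252). The call was lost without +Dox replicate 1 (adjusted p = 0.0672), +Dox replicate 2 (0.0935), -Dox replicate 1 (0.115) or -Dox replicate 2 (0.112), with log2 values from 2.64 to 3.03, and without +Dox replicate 3 the value was 3.99 (adjusted p = 0.00557). Satellite cells were lower than -Dox by a log2 fold change of -2.09 ± 0.65 (adjusted p = 0.031), a call that did not hold without either -Dox library (0.117 and 0.104) or without satellite replicate 1 (0.0717) or 2 (0.0792). Satellite cells and +Dox differed by 0.93 ± 0.60 (log2, adjusted p = 0.23), and by 1.91 (adjusted p = 0.0147) without +Dox replicate 3.

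Jph2, the junctophilin best known from heart, which skeletal muscle also uses, changed least of the 10 genes after Dox removal. It was read at 616, 726 and 797 normalized counts in +Dox, at 983 and 1290 in -Dox, and at 44.8, 1.34 and 47.5 in satellite cells. The groups did not overlap, with means of 712.8 ± 91.1 (SD) in +Dox and 1136 ± 216.5 in -Dox. The step between the iPax7 groups was not called, at a log2 fold change of 0.67 ± 0.83 (adjusted p = 0.739). That standard error comes from the fit on all 8 libraries, so it takes in satellite replicate 2, far below the other satellite libraries. Under the alternatives the step ran from 0.47 to 0.85 and was not called either. Satellite cells were 22.8-fold lower than +Dox (adjusted p = 0.0031) and 36.3-fold lower than -Dox (adjusted p = 0.0024). The 5 genes nearest to it in pattern were Coa4, Ctxn1, Rassf7, Cdkn2b and A630033H20Rik, at a mean absolute log2 difference of 0.25, 0.376, 0.381, 0.415 and 0.524. Its nearest neighbour among the 10 genes was Cacng1, at 1.66, with 1245 as the rank of that distance among all genes.

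The promoter of Jph2 is shown beside the others because the gene was already read with Dox. The 230 bases at chr2:163223730-163223959, minus strand, hold 1 E-box, of the form CAGCTG, in capitals.

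Jph2: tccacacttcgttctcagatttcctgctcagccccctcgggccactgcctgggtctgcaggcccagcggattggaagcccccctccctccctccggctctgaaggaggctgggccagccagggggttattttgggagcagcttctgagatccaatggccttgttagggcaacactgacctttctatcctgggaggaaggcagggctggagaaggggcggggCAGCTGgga

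Atp2a1 encodes SERCA1, the calcium pump of fast muscle fibers. Normalized counts of 472, 508 and 64.7 in +Dox stood against 60700 and 70070 in -Dox and 5424, 3395 and 3566 in satellite cells. The groups did not overlap, and satellite cells were between the iPax7 groups. The pump gene rose 187.5-fold after Dox removal (log2 7.55 ± 0.79, adjusted p = 0.000495), and satellite cells were 11.8-fold above +Dox (adjusted p = 0.0019) and 15.8-fold below -Dox (adjusted p = 0.00169). In the annotation 763 of its 3483 exon bases, 21.9%, also belong to Rabep2, so its counts are less certain than those of its neighbours in this account.

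The promoter of Atp2a1 follows, as the gene had the highest level per exon length of the 10 in satellite cells. The 215 bases at chr7:133606623-133606837, minus strand, hold 1 E-box of the form CAGCTG in capitals.

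Atp2a1: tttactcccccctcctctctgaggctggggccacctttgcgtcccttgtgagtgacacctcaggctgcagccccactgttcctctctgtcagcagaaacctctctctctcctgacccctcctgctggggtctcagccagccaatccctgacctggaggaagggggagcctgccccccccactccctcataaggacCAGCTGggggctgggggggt

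For contrast, the 250 bases before Ryr1, at chr7:29910171-29910420 on the minus strand, hold no E-box.

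Ryr1: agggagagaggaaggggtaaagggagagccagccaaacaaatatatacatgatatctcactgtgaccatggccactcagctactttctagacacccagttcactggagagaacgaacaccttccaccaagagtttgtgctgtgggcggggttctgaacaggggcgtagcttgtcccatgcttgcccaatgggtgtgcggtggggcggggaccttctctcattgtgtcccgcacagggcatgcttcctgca

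Of the 10 genes 6 were in the promoter table, with 8 promoters in all. For Cacnb1, not shown, the 243 bases at chr11:97883949-97884191 also held no E-box. The 250 bases at chr11:97879687-97879936, before another start of Cacnb1, held 1, of the form CACATG. An E-box was in 66.2% of 32851 RefSeq promoters and the form CAGCTG in 13.0%. All 250 bases before the RefSeq start were searched there, while in the 10 genes bases at or after an annotated start were left off, so some of their stretches are shorter and the shares cannot be set directly beside them. The MEF2 motif was in 2.92%, the MEF3 letters TCAGGTT in 3.49% and the CArG box in 1.47% of promoters, searched on both strands, where a CAGCTG is also counted as an E-box. Neither TCAGGTT nor the CArG box was found in the stretches searched in the 8 promoters.

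**Figure D2:**
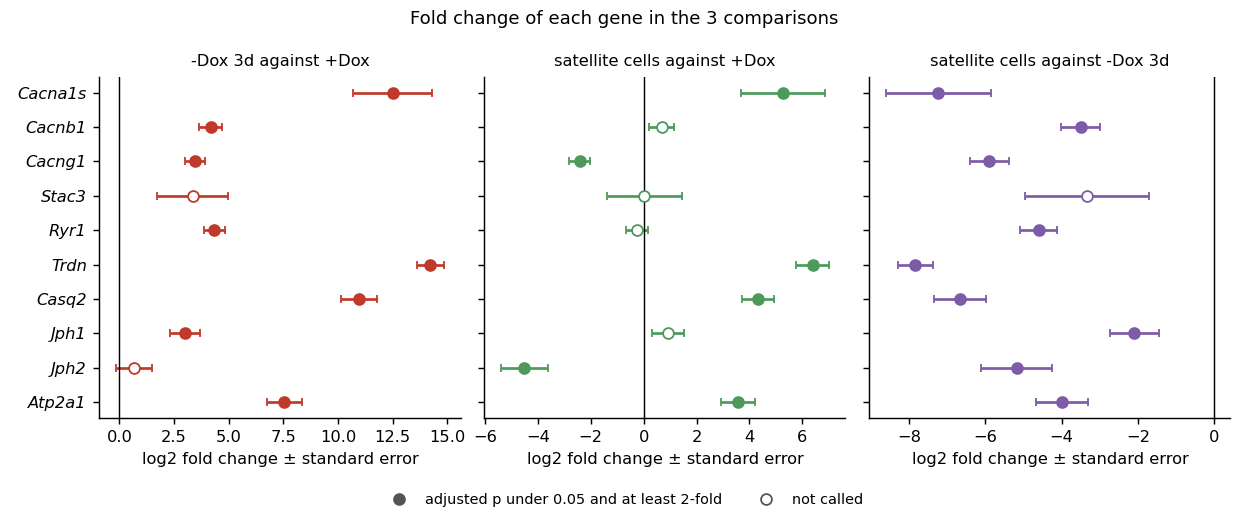
Log2 fold change with its standard error for the 10 genes in the 3 comparisons, with filled points for genes called at an adjusted p under 0.05 and at least 2-fold and open points for the rest. For -Dox against +Dox the values run from 0.67 for Jph2 to 14.23 for Trdn, and for satellite cells against +Dox they run from -4.51 for Jph2 to 6.39 for Trdn.

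Counts divided by exon length and by library size put the genes on one scale, in CPM per kb of exon. On that scale the highest of the 10 in +Dox was Cacng1, at 30.8 ± 2.47 (SD, n = 3), followed by Jph2 at 3.54 ± 0.454, Atp2a1 at 2.11 ± 1.49 and Jph1 at 1.97 ± 1.70, and the last 3 of these overlapped between libraries. In -Dox the order began with Casq2 at 601 ± 37.3 (SD, n = 2), Atp2a1 at 397 ± 40.3 and Cacng1 at 343 ± 40.3, of which the latter 2 overlapped, and Trdn at 33.9 ± 2.68. Ryr1 and Jph2, at 5.58 ± 0.0719 and 5.65 ± 1.08 in -Dox, did not differ beyond their spread, and Stac3 was lowest, at 2.43 ± 0.994. In satellite cells Atp2a1 was highest, at 25.1 ± 6.83 (SD, n = 3), then Casq2 at 5.94 ± 3.63 and Cacng1 at 5.77 ± 3.39, which overlapped each other.

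Relatives (paralogs) of these genes, some of which other tissues use, were read as well, though none was listed for Trdn. These paralogs did not all move with the genes above. Casq1, the calsequestrin of fast muscle, was read at 27.04, 23.7 and 5.46 normalized counts in +Dox, at 13070 and 11670 in -Dox, and at 113, 146 and 64.6 in satellite cells. It rose after Dox removal by 9.34 ± 0.67 (log2, adjusted p = 5.61e-05), yet its level per length in -Dox, 132 ± 10.5 CPM per kb, was below the 601 ± 37.3 of Casq2. Cacng6, a gamma subunit also found in muscle, went from 57.1, 87.4 and 71.0 normalized counts in +Dox to 764 and 775 in -Dox (log2 3.42 ± 0.66, adjusted p = 0.0225) and was at 0 in all 3 satellite cell libraries. With 3 counts over the group as the floor, that was at least 54.3-fold lower than +Dox and at least 580-fold lower than -Dox.

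Ryr3, a ryanodine receptor of developing muscle and brain, was read at 56.3, 42.2 and 0.911 normalized counts in +Dox, at 588 and 347 in -Dox, and at 567, 3397 and 2490 in satellite cells. Satellite cells were above +Dox by 6 ± 1.14 (log2, adjusted p = 0.0025), while the change after Dox removal was not called (3.80 ± 1.07, adjusted p = 0.065). Per exon length, satellite cells held 2.57 ± 1.73 CPM per kb of Ryr3 and 0.229 ± 0.105 of Ryr1, and each library had more of Ryr3. Both -Dox libraries had the opposite order, at 0.559 ± 0.204 for Ryr3 and 5.58 ± 0.0719 for Ryr1.

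Pore subunits other than Cacna1s were not highest in -Dox. Cacna1d, a channel of neurons and endocrine cells, was read at 163, 163.7 and 33.7 normalized counts in +Dox, at 1.84 and 10.2 in -Dox, and at 674, 934 and 1161 in satellite cells. It fell after Dox removal (log2 -4.30 ± 0.99, adjusted p = 0.0293) and was higher in satellite cells than in +Dox (2.94 ± 0.75, adjusted p = 0.0111), and it was the only 1 of the 55 other calcium genes tested to fall after Dox removal. Cacna1c, the channel of heart and smooth muscle, was read at 269.7, 354.7 and 274.1 in +Dox, at 9.19 and 24.0 in -Dox and at 1.32, 2.68 and 40.9 in satellite cells. It was lower in satellite cells than in +Dox (log2 -4.31 ± 1.28, adjusted p = 0.0218), and its difference after Dox removal, -4.16 ± 1.5, was not called (adjusted p = 0.138).

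Among the beta subunits Cacnb3 was not called after Dox removal (log2 0.63 ± 0.52, adjusted p = 0.563) and was lower in satellite cells than in -Dox (-1.45 ± 0.52, adjusted p = 0.0499). Cacnb4 was higher in satellite cells than in +Dox (3.41 ± 1.09, adjusted p = 0.0293), although the libraries overlapped. Stac2, the relative of Stac3 that neurons use, was the more abundant of the pair per exon length with Dox, at 22.2 ± 6.49 against 0.238 ± 0.169 CPM per kb. It was read at 3856, 3838 and 2178 normalized counts in +Dox, at 1270 and 819 in -Dox and at 278, 97.9 and 33.0 in satellite cells. It was lower in satellite cells than in +Dox (log2 -4.59 ± 0.72, adjusted p = 0.000934) and than in -Dox (-2.94 ± 0.71, adjusted p = 0.00977), and the difference after Dox removal was not called (-1.66 ± 0.73, adjusted p = 0.228). Stac was read in 2 of the 3 satellite cell libraries, at 43.4 and 73.7 normalized counts, and at 0 in every iPax7 library. Ryr2, Cacnb2, Jph3 and Jph4 were too low to be tested.

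Atp2a2, the SERCA pump of most tissues, was high in all groups, at 6534, 6733 and 3825 normalized counts in +Dox, at 18750 and 17630 in -Dox, and at 10350, 12930 and 18900 in satellite cells. It rose after Dox removal (log2 1.67 ± 0.33, adjusted p = 0.0155) and was higher in satellite cells than in +Dox (1.30 ± 0.31, adjusted p = 0.00776). Per exon length, Atp2a2 exceeded Atp2a1 in +Dox, at 21.2 ± 6.05 against 2.11 ± 1.49 CPM per kb, and in satellite cells, at 52.4 ± 16.3 against 25.1 ± 6.83, whereas in -Dox Atp2a1 was the higher, at 397 ± 40.3 against 67.8 ± 2.96. Atp2a3, the SERCA pump of blood and endothelial cells, was at 0 in +Dox, at 119 and 139 normalized counts in -Dox and at 2206, 760 and 915 in satellite cells, which was at least 162-fold and at least 1630-fold higher than the floor of +Dox.

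**Figure D3:**
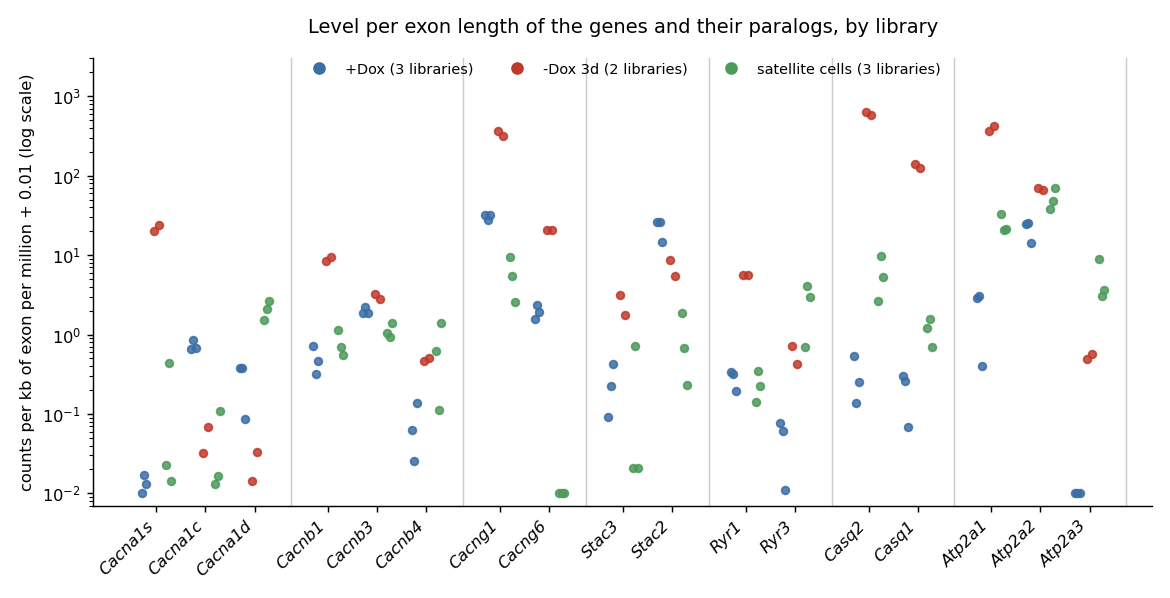
CPM per kb of exon plus 0.01, on a log axis, for 7 of the 10 genes beside their paralogs, with 1 point per library. In -Dox the first gene of each set, which belongs to the 10, is highest except for Stac3, which Stac2 exceeds. In satellite cells Ryr3 lies above Ryr1, Cacna1d above Cacna1s in each library and Atp2a2 above Atp2a1.

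The wider list of 65 other calcium-handling genes, 55 of which could be tested, moved in the same comparisons as follows. After Dox removal 22 rose and 1 fell, with a median log2 fold change of 1.57, where 4.63% of all genes tested rose and 3.01% fell. Of the 9 genes of the triad and the T-tubule 7 rose, with a median of 4.37, among them Murc, a caveolar protein (log2 4.37 ± 0.80, adjusted p = 0.0102), and Cav3, the muscle caveolin (7.87 ± 1.47, adjusted p = 0.0111). Sypl2, a triad membrane protein, and Fsd2 were at 0 in +Dox and reached at least 641-fold and at least 193-fold higher levels in -Dox. Sln, the SERCA inhibitor sarcolipin, rose from 6.01, 0.741 and 10.0 normalized counts to 8649 and 7393 (log2 10.50 ± 0.77, adjusted p = 6.59e-05), and Pvalb, a calcium buffer of fast fibers, was at least 302-fold higher. None of the 5 store-operated entry genes tested, of the 3 IP3 receptors or of the 5 plasma membrane export genes tested was called.

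In satellite cells 23 of the 55 were higher than in +Dox and 8 were lower, with a median of 0.98, where 23.9% of all genes tested were higher and 18.2% lower. The higher ones included Itpr2, an IP3 receptor (log2 3.11 ± 0.55, adjusted p = 0.00177), and Atp2b4, a plasma membrane calcium pump (5.15 ± 0.74, adjusted p = 0.000568), and Atp2b3, another such pump, was at least 237-fold higher. Sln was also higher (6.03 ± 0.66, adjusted p = 0.000135). Lower in satellite cells were Murc (-3.47 ± 0.76, adjusted p = 0.00547), Micu2, a regulator of the mitochondrial uniporter (-1.89 ± 0.47, adjusted p = 0.00969), and Calm3, 1 of 3 calmodulin genes (-1.28 ± 0.34, adjusted p = 0.0144). Against -Dox 8 of the 55 were higher in satellite cells and 23 were lower, with a median of -0.89, where 20.4% of all genes tested were higher and 17.2% lower. Among the lower ones, Cav3 (log2 -7.49 ± 1.46, adjusted p = 0.00342) and Hrc, a calcium-binding protein of the reticulum (-7.37 ± 1.25, adjusted p = 0.00165), stood near Murc (-7.84 ± 0.93, adjusted p = 0.000281), and Fsd2 held 1 read in satellite cells, for a ratio of 347 (95% counting interval 61.9 to 13800). Pln, the SERCA inhibitor phospholamban, was among the higher ones (6.38 ± 2.22, adjusted p = 0.046), with 4 reads in -Dox. So were Cacna1d (7.24 ± 1.12, adjusted p = 0.00106), Atp2b4 (4.87 ± 0.87, adjusted p = 0.0022) and Itpr2 (3.61 ± 0.67, adjusted p = 0.00271), and Atp2b3 was at least 136-fold higher.

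Markers of other cells moved with these results and their part was not tested. The summed normalized counts of 10 myofiber markers were 18300 to 19790 in +Dox, 1674000 to 1780000 in -Dox and 6240 to 15540 in satellite cells, with Pvalb at 0 in +Dox. In +Dox that sum was mostly Eno3, at 13540 to 15310 there and 172.9 to 2588 in satellite cells. Eno3, Tnnt3, Mylpf and Tnni2 had higher means in +Dox than in satellite cells. Acta1, Ckm, Myh1, Myh2, Myh4 and Pvalb had lower ones. Ckm, the muscle creatine kinase, was read at 12.0, 14.8 and 0 in +Dox, at 10700 and 9588 in -Dox and at 1535, 525 and 1132 in satellite cells. For 5 proliferation markers the sums were 54650 to 72860 in +Dox, 5593 to 6031 in -Dox and 2282 to 2959 in satellite cells, and for 7 satellite cell markers they were 146600 to 217200, 23000 to 23870 and 260900 to 402100 in the same order. In +Dox the satellite cell sum was mostly Myf5, at 111000 to 190100. In -Dox Myf5 was at 12410 and 10750, beside Vcam1 at 5617 and 5122, Itga7 at 3510 and 3788 and Cdh15 at 2057 and 3073. Itga7 of the same list rose after Dox removal (log2 3.30 ± 0.74, adjusted p = 0.0257), Cdh15 was not called (-0.01 ± 0.41, adjusted p = 1), and Calcr was at 0 to 1.82 in +Dox against 9206 to 14220 in satellite cells. Of 5 endothelial markers, all were detected in satellite cells, with sums of 13680 to 19990, while +Dox held 5.18 to 166.6 with Cdh5 and Kdr at 0 and -Dox 0.919 to 22.2 with Cdh5 and Emcn at 0. The 5 immune markers summed to 672 to 2986 in satellite cells, and 4 of them, Ptprc among them, were at 0 in all iPax7 libraries. The remaining one, Cd68, was at 157.5 to 463.6 in +Dox, 181 and 205.8 in -Dox and 288.2 to 1718 in satellite cells. The 5 mesenchymal markers summed to 46430 to 69720 in satellite cells, to 5246 to 12590 in +Dox and to 4123 to 5922 in -Dox. In satellite cells that sum was mostly Dcn and Col3a1, and Dcn, Col3a1, Lum and Pdgfra were higher there than in +Dox. Ly6a was not, at 2647, 2899 and 9643 in +Dox and 851.7, 2291 and 4725 in satellite cells. Since Casq2 and Jph2 are also heart genes, 5 cardiac markers were read, with sums of 7.29 to 44.3 in +Dox, 417 to 606.5 in -Dox and 0 to 142 in satellite cells, and Myl7 was at 0 in every library. The -Dox sums were mostly Myh6, a cardiac myosin, at 389.7 and 606.5, with Nppa and Nkx2-5 at 0 and Tnni3 at 27.6 and 0. The sums of 6 differentiation markers were 53430 to 72770, 570100 to 593500 and 32940 to 43630 in +Dox, -Dox and satellite cells. In +Dox the differentiation sum was mostly Chrna1, at 39460 to 55090 there and 5275 to 6906 in satellite cells. Chrna1, Myog and Myh3 had higher means in +Dox than in satellite cells, and Cdkn1a, Mef2c and Tmem8c had lower ones. For 5 smooth muscle markers the sums were 4420 to 7801, 65370 to 66610 and 40110 to 55840 in +Dox, -Dox and satellite cells. In -Dox the smooth muscle sum was mostly Acta2, at 53990 and 53840, and Des, at 11340 and 12660, while Cnn1 was at 0 in both libraries and was lower than in +Dox (adjusted p = 0.0371), and Myh11 and Rgs5 were not called.

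The chromatin files hold 1 merged list of regions per condition, so what follows is a description with no test between conditions. A gene was counted where a region came within 1000 bases of any annotated start. In ATAC-seq, which marks DNA open to a transposase, 7 of the 10 genes had such a region in +Dox, 8 after 12 h without Dox, 9 after 24 h and 10 after 3 d. The counts in the same order were 9, 9, 10 and 10 within 2500 bases, and 7, 7, 8 and 8 where the summit had to lie within 1000 bases. The share of all 20478 genes matched was 65.6%, 63.6%, 66.8% and 68.2% in the same files. Myotubes made from iPax7 cells in 2% horse serum had a region at all 10 genes (64.0% of all genes), as did myotubes of the C2C12 myoblast line (56.1%), while satellite cells had 7 (60.7%) and C2C12 myoblasts had 4 (46.7%). C2C12 myoblasts carrying a flag control or Pax7-flag each had 7 (57.9% and 59.0%).

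The genes with no region inside 1000 bases in +Dox were Trdn, Casq2 and Atp2a1. Trdn had none after 12 h, then a region with a fold enrichment of 3.45 after 24 h, 4.44 after 3 d and 16.2 in iPax7 myotubes. Atp2a1 had a region upstream throughout, from -1375 to -1012 bases of the start in +Dox, -1224 to -1018 after 12 h, -1368 to -1005 after 24 h and -1375 to -988 after 3 d. It was counted at 3 d because its edge then passed the limit of 1000 bases, with a fold enrichment of 3.98 and the summit at -1130, so its entry is no gain of a region. The value was 5.27 in satellite cells and 10.8 in iPax7 myotubes, where the region spanned -1465 to 237. The Casq2 regions counted at 12 h, 24 h and 3 d, with fold enrichments of 4.09, 5.55 and 6.01, lay at an internal start 57636 bases from the outermost one. At the outermost start of Casq2 a region was called only in the myotube files, with 17.9 in iPax7 myotubes and 13.9 in C2C12 myotubes and summits at -31 and -24 bases. No region was therefore called at that start at 3 d, when the transcript was at 81230 and 74390 normalized counts.

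At genes with a region already in +Dox, fold enrichment was higher at some and lower at others after 3 d. Jph1 was at 40.9 in +Dox, 39.2 after 3 d and 41.2 in satellite cells, and Jph2 was at 19.7, 28.5 and 5.66. Cacng1 went from 13.5 in +Dox to 7.12 after 3 d and 27.2 in myotubes. The Cacna1s region before the start spanned -1367 to -862 bases in +Dox and -1347 to -895 after 3 d. Only its edge, 139 and 106 bases, lay inside the window around the outermost start. With Dox its fold enrichment was 18.6, with the summit 1096 bases before the start (position -1096). No region was called over that start at 3 d, when the transcript was at 6211 and 7460 normalized counts. In iPax7 myotubes the strongest region, at 24.7, spanned -546 to 290 with its summit at -120. Ryr1 had 18.3 in +Dox from a summit at 1204 bases after the start, 7.03 after 3 d at -65, and 39.9 in myotubes at 1116. Enrichment at starts differed between files, with medians over genes of 22.2 in +Dox, 13.4 at 12 h, 22.9 at 24 h, 21.5 at 3 d, 16.7 in iPax7 myotubes and 13.9 in satellite cells, and the deposited values were not rescaled.

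**Figure D4:**
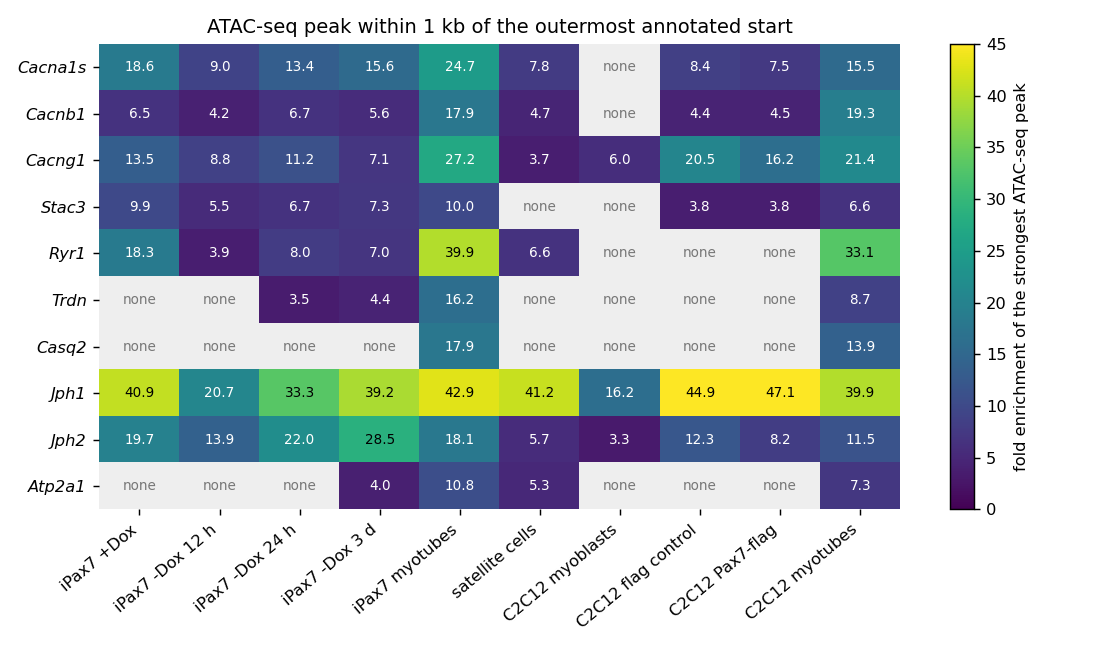
Fold enrichment of the strongest ATAC-seq region within 1 kb of the outermost annotated start, for the 10 genes in 10 conditions, with grey where no region was called. Among the iPax7 cultures Trdn first has a region at 24 h without Dox, and the region of Atp2a1 lies just beyond the limit of 1 kb until 3 d. Outside the myotube columns the region of Cacna1s reaches into the window only by its edge. Casq2 has a region only in the 2 myotube columns.

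Histone marks at the starts also differed between the genes. H3K27ac and H3K4me3, which mark active promoters, and H3K4me1, which marks enhancers and promoter flanks, were each called within 1000 bases of a start of 7 of the 10 genes in +Dox, and the 3 without any of them were Cacna1s, Trdn and Casq2. The share of all genes was 50.2% for H3K27ac, 62.7% for H3K4me3 and 64.2% for H3K4me1. After 3 d without Dox these 3 genes had all 3 marks. The counts were then 9 for H3K27ac (47.2% of all genes), without Jph1, 10 for H3K4me3 (68.7%) and 10 for H3K4me1 (67.7%). The nearest H3K27ac regions of Jph1 then lay at -1322 to -1069 and 1006 to 1190 bases from its start, just beyond the limit. The H3K4me3 list held 214172 regions without Dox and 94067 with it, which moves with the difference in the H3K4me3 counts. At Casq2, H3K4me3 regions covered 0% of the gene in +Dox and 26.8% in -Dox, and at Jph2 H3K27ac regions covered 90.6% and 73.2%.

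H3K27me3, the Polycomb mark, was called near a start of Cacna1s alone of the 10 genes in +Dox, where 23.1% of all genes had it. After 3 d without Dox it was called near a start of 2 of the 10 (21.1% of all genes), Jph1 and Cacna1s, the latter at another annotated start. The Jph1 region spanned -1436 to -817 bases from the outermost start, so only its edge, 184 bases, lay inside the window. At Cacna1s it covered 982 bases of the window of 1000 bases on each side of the outermost start in +Dox and 0 bases after 3 d without Dox, although it covered 20.8% and 20.9% of the gene body. In C2C12 myoblasts it covered 639 bases of that window with the flag control and 1860 with Pax7-flag, and 20.8% and 51.0% of the gene body. The H3K27me3 lists covered 91.7 Mb with Dox and 65.9 Mb without, and 130 Mb with the flag control and 161 Mb with Pax7-flag. These totals move with the differences at the Cacna1s start.

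**Figure D5:**
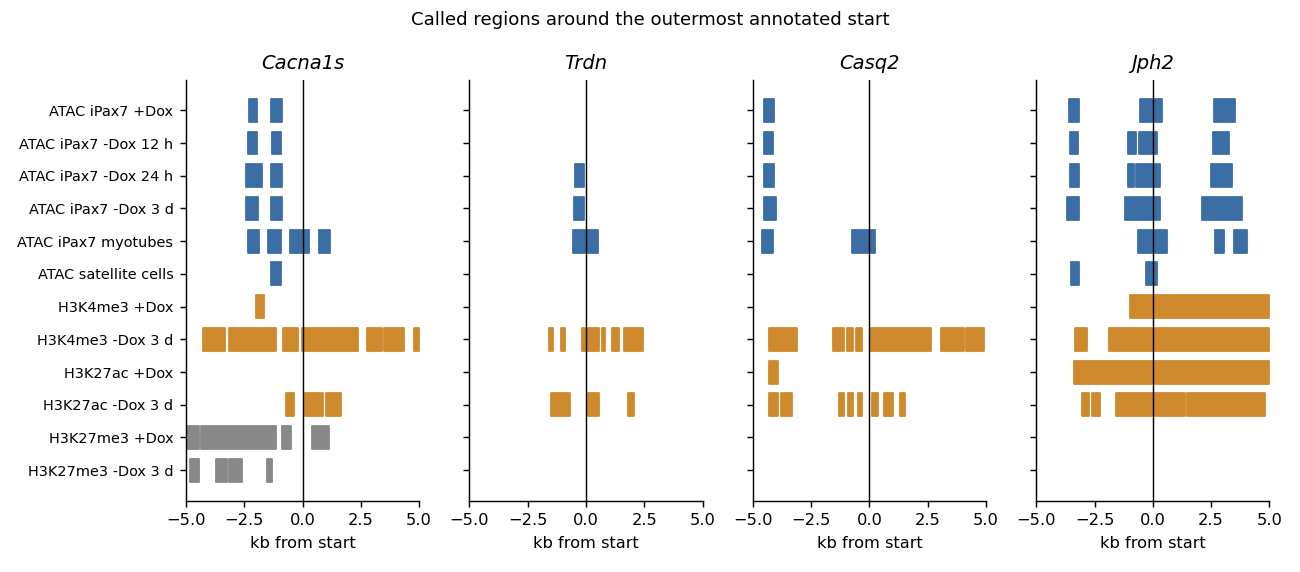
Called regions from 5 kb before to 5 kb after the outermost start of Cacna1s, Trdn, Casq2 and Jph2, by file, with the start at 0 and the direction of transcription to the right. The H3K4me3 and H3K27ac regions at the starts of Cacna1s, Trdn and Casq2 appear only in the -Dox 3 d lanes, while those of Jph2 appear in both, and H3K27me3 lies at Cacna1s.

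The Pax7 list held 2455 sites, from which the authors had removed every peak also found in a -Dox replicate. The paper expects this to undercount binding, since Pax7 may stay on some sites without Dox. None lay within 1000 bases of a start of the 10 genes, where 1.64% of all genes had one. Jph1 was the only 1 of the 10 with a site in the gene, at chr1:17049975-17050900 in an intron, 37.4 kb from its outermost start, and 4.90% of all genes and 21.9% of genes of at least 100 kb held a site. Measured from the outermost start, the next nearest site was 64.5 kb from that of Cacng1, then 87.5 kb from that of Cacna1s and 143 kb from that of Ryr1. At the Jph1 site the ATAC-seq fold enrichment was 26.9 in +Dox, 9.46 after 12 h, 10.6 after 24 h, 7.49 after 3 d and 18.2 in satellite cells, with no region in C2C12 myoblasts. In C2C12 cells it was 4.61 with the flag control and 7.51 with Pax7-flag. H3K4me1 covered 831 of its 926 bases with Dox and 926 without, and H3K27ac none with Dox and 96 without.

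The bases around the ATAC-seq summit of this site are shown, as it is the only site of the Pax7 list within the 10 genes. They lie at chr1:17050050-17050250 on the plus strand (NCBIM37). Capitals mark the letters GTCAC of the paired-domain motif on either strand, of which there are 2.

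Jph1 site: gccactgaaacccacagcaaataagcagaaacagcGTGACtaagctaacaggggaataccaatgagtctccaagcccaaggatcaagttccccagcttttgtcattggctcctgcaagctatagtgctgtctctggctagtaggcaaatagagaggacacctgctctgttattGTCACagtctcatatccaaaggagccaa

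The homeodomain letters TAAT were not in this window, and an E-box was there 1 time. In windows of the same length at the centre of all 2455 sites, TAAT was in 72.3%, GTCAC in 37.0% and an E-box in 67.5%, on either strand. Those windows were placed on the middle of each site and the one shown on an ATAC-seq summit, so the shares are given as background only.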

How the data were processed

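RNA-seq of 3 +Dox, 2 -Dox and 3 satellite cell libraries was analysed from the deposited HTSeq read counts per gene, which were not normalized. Each group is 1 record with several deposited count tables, taken as replicates. The submitters' processing notes name Trimmomatic 0.32, TopHat2 2.0, Bowtie2 2.2 and 2.2.6, HTSeq 0.6, edgeR, Picard, MACS2 2.0.10 and the mm9 build. The libraries held 39010958 to 54674619 counts on genes, and reads with no gene made up 0.00200% to 0.00309%. Counts were fitted with edgeR 4.0.16 in R 4.3.3 (TMM normalization, filterByExpr, quasi-likelihood test on all 8 libraries with 1 mean per group, Benjamini-Hochberg adjustment over 14836 genes), and a gene was called at an adjusted p under 0.05 and at least 2-fold. Standard errors were derived from the log2 fold change and its F statistic. The fit was tested on simulated data. The -Dox group has 2 libraries, and an exact permutation of single values could not go below 0.1.

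For ATAC-seq, the authors offset reads for the Tn5 insertion, merged replicates and called peaks, and the deposited values used here are the fold enrichment, a ratio over background, and the −log10 of the q-value. For histone marks and Pax7 the deposited regions, called by the authors with Qeseq, carry positions without other values. Peak depth is unknown. Starts came from the NCBIM37 annotation, and promoters from RefSeq GRCm38.p6. Python 3.11.15, numpy 2.4.6 and matplotlib 3.10.9 were used.

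The genes, the lists of paralogs, calcium-handling genes and cell markers, and the tests were chosen with earlier results of these data known. Named in the text are the 10 genes, Pax7, every paralog, the 5 other calcium genes with the largest called change in each direction (mean in the higher group 100 normalized counts or more), and the 5 genes most like Ryr1 and Jph2. Ckm and other single markers named beside the marker sums were chosen after their values were seen. Alternatives were DESeq2 1.42.0, RLE size factors, other count filters, no fold threshold, fits of 2 groups, a replicate block, leaving out each library, and other windows and overlap rules for regions.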

Additional observations from a re-analysis of the deposited data

How the results depend on the processing

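The numbers of the 10 genes called stayed within 1.5 times of those reported under every alternative run. For -Dox against +Dox the count was 8, with 7 to 8 when a library was left out and 7 to 9 under the other alternatives. For satellite cells against +Dox it was 6, with 5 to 6 and 4 to 6, and for satellite cells against -Dox it was 9, with 8 to 9 and 8 to 9. DESeq2 gave no adjusted p for Cacna1s, so its counts of 7, 5 and 8 leave that gene out. Of the 415 single fold changes recomputed, 392 kept their direction and their side of the threshold, 12 lost and 4 gained a call, and 7 changed sign. Sign changes were counted apart from calls, and among them Stac3 without satellite replicate 2 also gained a call. The sign changed only in differences between satellite cells and +Dox that were near 0 in the main fit. Ryr1 became 0.03 without satellite replicate 1, with a range of -0.65 to 0.03 when a library was left out. Stac3, at 0.02, became -0.04 with only the libraries of both groups, -2.16 with the replicate block, -0.43 without +Dox replicate 1, -0.09 without +Dox replicate 2, -0.02 without -Dox replicate 2 and -4.32 without satellite replicate 2, with a range of -4.32 to 0.70 when a library was left out. Where a -Dox library was left out, the lone one was assumed to vary like the other groups.

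The replicate numbers did not pair the libraries, since the deviations of libraries with the same number correlated at -0.0398 to 0.0272. The fit with the replicate block also used only the libraries of both groups compared. With the block the 10 genes gave 9, 4 and 9 calls in the 3 comparisons, and with the same libraries and no block 9, 5 and 9. Cacna1s was not tested in these fits for satellite cells against +Dox, so the 4 and 5 leave it out. Of the other calcium genes 33 and 22 were called with the block for -Dox and for satellite cells against +Dox, 27 and 23 with the same libraries and no block, and 23 and 31 with all 8 libraries. Stac3 was called for -Dox against +Dox with the block (4.09, adjusted p = 0.00606) and also without it (3.35, adjusted p = 0.0313) on those libraries, and with the block Trdn was no longer called for satellite cells against +Dox (6.52, adjusted p = 0.0557).

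Calls over all genes depended more on the setting. For -Dox against +Dox 687 genes rose and 447 fell, against 1041 and 969 with DESeq2, 999 and 951 with only the iPax7 libraries and 1223 and 1385 with the block, and leaving out a library gave 363 to 779 and 125 to 595. The share of calls that were higher was 60.58% and ran from 46.89% to 74.39%. The causes were not tested.

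Of 270 pairs of a gene and a region file, 172 had a region near a start, with 152 and 189 for windows of 500 and 2500 bases, 158 for the stronger regions by q, 143 with the summit or centre in the window and 161 at the outermost start.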
